A study of Homo sapiens with 4 samples.

Results

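The mRNAs described here encode the factors that start and extend protein synthesis, together with the kinases and binding proteins that regulate them. Members were chosen by gene symbol alone: every symbol beginning with EIF or EEF was taken, and 103 pseudogene symbols, 5 antisense or divergent transcripts and 1 further symbol were left out of the 180 found. This left 71 of the 44715 symbols in the deposited tables. They comprised 44 initiation factors, 10 core elongation factors, 9 proteins that modify or accompany elongation factors, and 8 regulators. The symbol rule used no measured value, but this group of genes was proposed with earlier results of these data known.

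The study precipitated RNA bound to PHGDH, phosphoglycerate dehydrogenase, the enzyme that opens the serine synthesis pathway, to ask whether this enzyme associates with RNA. All 4 libraries came from HEK293T, a long-established line of human embryonic kidney origin expressing the SV40 large T antigen, with no genetic change and no drug treatment named in the labels. The anti-PHGDH group held 2 libraries precipitated with an antibody to PHGDH, and the IgG group held 2 control precipitations with an IgG antibody. Both groups came from native lysates without crosslinking named in the labels, were described by the submitters as biological replicates, and represent 1 cell line. A library of unprecipitated input RNA was not used here, so levels in the precipitates could not be set against levels in the cells. Values are CPM, each gene's read count scaled so that every library has the same total. They give no amount of RNA recovered per precipitate and are not scaled to transcript length.

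Depth lay between 1216477 and 3875746 reads assigned to genes per library. IgG replicate 1 stood apart from the other libraries: it had reads on 4148 symbols, against 14518 to 16767 in the others. It listed 5895 of the 9524 genes tested, 61.9%, at 0. Anti-PHGDH replicate 1 carried 28.8% of its reads on mitochondrial genes, against 3.37% to 8.69% in the others. The HEK293T markers VIM and NEFM were detected in all 4 libraries, whereas CDH2 and LIN28B were listed at 0 in IgG replicate 1. The blood cell genes PTPRC and HBB were listed at 0 throughout, ALB did not pass 0.297 CPM, and the fibroblast collagen COL1A1 reached at most 12.3 CPM. The PHGDH mRNA itself measured 6550 and 1532 CPM with anti-PHGDH and 0 and 461 CPM with IgG. It was the only gene called in the study-wide test (adjusted p = 0.0062, limma with Benjamini-Hochberg adjustment).

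In translation initiation, EIF2 brings the initiator tRNA to the small ribosomal subunit, and EIF3 and EIF1 also act on that subunit. The cap-binding assembly EIF4F recruits the resulting complex to the mRNA. EEF1A then delivers aminoacyl-tRNAs and EEF2 moves the ribosome along. Kinases of the EIF2AK family shut initiation down under stress by phosphorylating EIF2, and 4E-binding proteins block EIF4E when mTORC1 is inactive. Many mRNAs of elongation factors, and some of initiation factors, begin with a cytosine followed by an unbroken pyrimidine run. This terminal oligopyrimidine (TOP) tract places their translation under mTORC1 through the RNA-binding protein LARP1.

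The start sequences below show examples of members with such a tract, beside EEF1G and EIF4E without it. The classes follow gene symbols and not the tract. Each window holds 10 bases before and 20 bases from the RefSeq start in build GRCh38.p14, on the gene's own strand. Capitals mark a run that begins with C, continues with at least 4 pyrimidines and starts at the first transcribed base of the RefSeq model.
EEF1A1: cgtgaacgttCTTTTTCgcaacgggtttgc
EEF2: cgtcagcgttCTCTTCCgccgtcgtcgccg
EIF3F: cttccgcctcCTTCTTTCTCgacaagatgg
EIF2A: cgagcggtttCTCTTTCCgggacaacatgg
EIF4A2: gcgccgctgtCTTTTCagtcgggcgctgag
EIF4B: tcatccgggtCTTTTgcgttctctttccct
EEF1G: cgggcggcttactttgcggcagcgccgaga
EIF4E: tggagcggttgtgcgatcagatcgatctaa
The windows lie at chr6:73521013-73521042 for EEF1A1 and chr19:3985444-3985473 for EEF2, both on the minus strand. Those of EIF3F and EIF2A lie at chr11:7987327-7987356 and chr3:150546777-150546806 on the plus strand. The EIF4A2 and EIF4B windows, also on the plus strand, lie at chr3:186783567-186783596 and chr12:53006446-53006475. EEF1G (chr11:62573872-62573901, minus strand) and EIF4E (chr4:98929114-98929143, minus strand) are shown as members without the run. EEF1G is a known TOP mRNA, but its RefSeq start gave no such run.

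Of the 58 members with a start sequence in the RefSeq table, 13 (22.4%) had the tract at a start, compared with 988 of 15842 protein-coding genes (6.24%). The search read the sense strand only. The tract was present at a start of 10 of 37 initiation factors and 3 of 8 core elongation factors. None of the 7 regulators or 6 elongation factor modifiers with a start sequence carried it. Among members listed as known TOP mRNAs, 7 of 8 with a start sequence had it, as did 6 of the other 50. A match describes the letters at an annotated start and was not measured in these cells.

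Taken over all 71 members, the share of reads was nearly the same in every library. The members held 1.57% and 1.61% of reads with anti-PHGDH and 1.56% and 1.54% with IgG. The Wilson 95% intervals, which cover counting error only, were 1.56 to 1.59, 1.59 to 1.64, 1.55 to 1.58 and 1.52 to 1.56%. With mitochondrial genes removed from the total, the shares were 2.21% and 1.77% with anti-PHGDH and 1.63% and 1.60% with IgG. On that base both anti-PHGDH libraries lay above both IgG libraries. The mitochondrial share was highest in the library with the highest of these values, and its part in the order was not tested.

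The make-up of those reads differed in IgG replicate 1. Initiation factors held 0.776% and 0.859% of reads with anti-PHGDH and 1.23% and 0.853% with IgG. Core elongation factors held 0.730% and 0.701% with anti-PHGDH and 0.322% and 0.649% with IgG. Initiation factors thus made up 79.0% of member reads in IgG replicate 1 and 49.4% to 55.3% in the other libraries. Fewer members were seen there as well: 37 members had at least 1 read in IgG replicate 1, against 60 to 63 elsewhere. Regulators followed another order, with 0.0479% and 0.0389% of reads with anti-PHGDH and 0.00661% and 0.0249% with IgG. Their Wilson 95% intervals with anti-PHGDH, 0.0456 to 0.0503% and 0.0355 to 0.0425%, lay above both IgG intervals, 0.00584 to 0.00747% and 0.0225 to 0.0275%. With 2 libraries a group, an exact two-sided permutation test cannot go below 0.333, and none was used on these shares. Summed regulator levels were 478.6 and 388.8 CPM with anti-PHGDH, mostly from EIF4EBP2 (234 and 172 CPM) and EIF2AK1 (129.5 and 73.2 CPM). The sums with IgG were 66.05 and 248.8 CPM, with EIF4EBP2 at 1.29 and 77.9 CPM and EIF2AK1 at 0 and 50.0 CPM. The order of the class thus rested on these genes. Without EIF4EBP2 and EIF2AK1, the summed level in IgG replicate 2 lay above that in anti-PHGDH replicate 1. EIF2AK4 (47.5 against 25.8 CPM) and EIF1AD (35.5 against 30.3 CPM) had this reversed order, and the other regulators did not.

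**Figure D1:**
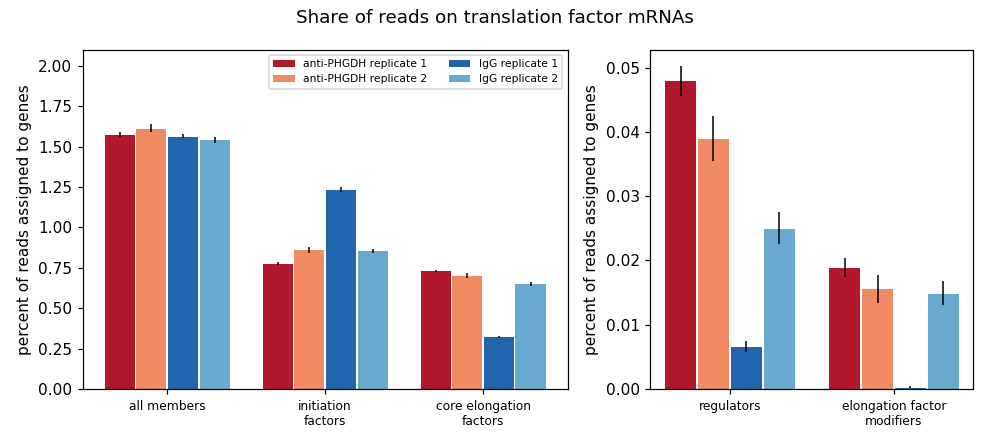
Bars give the percent of each library's gene reads on all 71 members and on each class, in 2 panels with different linear axes that start at 0; lines are Wilson 95% intervals for counting error. All members together lie between 1.54% and 1.61%, and initiation factors are highest in IgG replicate 1 (1.23%). Regulators are higher with anti-PHGDH (0.0479% and 0.0389%) than with IgG (0.00661% and 0.0249%). Most regulator reads with anti-PHGDH fall on EIF4EBP2 and EIF2AK1, and without these genes the groups overlap.

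Each gene was then compared between antibodies on the log2(CPM + 1) scale. The limma standard errors and p-values rest on a variance shared by genes of similar mean level. They do not measure each gene's own spread between replicates. Of the 71 members, 52 reached at least 5 CPM in at least 2 libraries and were tested among 9524 genes; the other 19 did not. No member passed an adjusted p of 0.05 in either direction in limma, and the lowest adjusted p of a member was 0.677. Across all genes tested, 1 was called higher with anti-PHGDH (0.0105%) and 0 were called lower (0%). At an unadjusted p under 0.05, 4 members were higher (EIF4E2, EIF3B, EIF4EBP2 and EIF3L), beside 261 of all genes tested (2.74%). None was lower, as was the case for all genes. The count tests edgeR and DESeq2, run on reads recovered from the CPM values, called 0 members, and 0 members had an unadjusted p under 0.05 in either tool. At that unadjusted threshold edgeR put 21 of all genes tested higher (0.220%) and 162 lower (1.70%), and DESeq2 put 89 higher (0.934%) and 149 lower (1.56%). The lower genes thus outnumbered the higher ones in both count tests, the opposite of limma.

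Counting only whether the groups were separated, 14 of 52 members (26.9%) had both anti-PHGDH values above both IgG values, beside 38.3% of all genes tested. In the other direction, 4 members (7.69%) were lower without overlap, beside 6.16% of all genes. The split depended on the scaling: with TMM factors it was 8 higher and 8 lower, beside 3042 and 862 of the 9524 genes tested. With each library centred on its median it was 3 higher and 22 lower, beside 846 and 3163 of all genes tested. Centring moved the median log2 fold change of all genes tested from 1.92 to -0.57. A difference of at least 2-fold, on the CPM + 1 scale, in every anti-PHGDH and IgG pair was met by EIF4EBP2 and EIF4E3 alone among members tested, and by 0 members with TMM factors or after centring. That is 3.85% of members, beside 9.30% of all genes tested. No member was 2-fold lower in every pair, beside 0.0840% of all genes. The 26.9% separated upward were thus below the share for all genes, and the downward share was close to it.

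The size of most differences moved with IgG replicate 1. The median log2 fold change of the 52 members was 1.16 with all 4 libraries and -0.04 without IgG replicate 1, while that of all genes tested went from 1.92 to 0.14. IgG replicate 1 was the lowest of the 4 libraries for 34 members (65.4%), beside 78.9% of all genes, and the highest for 14 members (26.9%), beside 16.3%. All 14 of the latter were initiation factors. It listed 16 tested members at 0 (30.8%), beside 61.9% of all genes tested. Over the 52 members, the Pearson correlation of log2(CPM + 1) reached 0.98 for the pair of libraries numbered 2, against 0.91 between the 2 anti-PHGDH libraries and 0.59 between the 2 IgG libraries. These are correlations across genes, which are not independent replicates. Over all genes tested the same 3 correlations were 0.93, 0.85 and 0.51. The second anti-PHGDH library was therefore nearer to its numbered control than to the other anti-PHGDH library, for these mRNAs as for all genes tested.

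**Figure D2:**
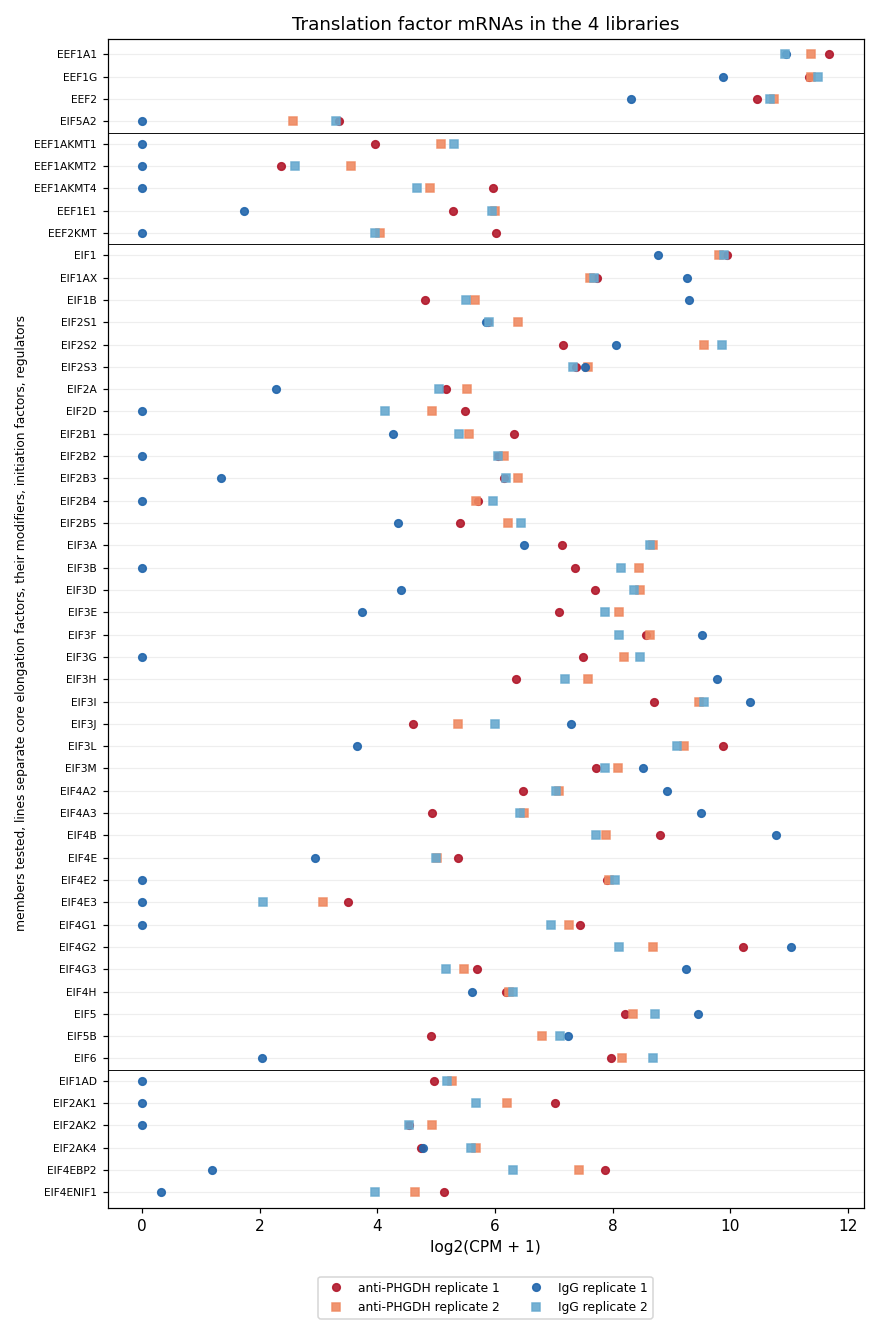
Each row is 1 of the 52 members tested, with its log2(CPM + 1) in the 2 anti-PHGDH libraries (red and orange) and the 2 IgG libraries (dark and light blue); lines separate the classes. Dark blue points of IgG replicate 1 lie at 0 for 16 members and at the far right for 14 initiation factors, while the other 3 libraries lie closer together.

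Among the core elongation factors, EEF1A1 was the only tested member whose groups did not overlap. EEF1A1, the factor that delivers aminoacyl-tRNA, measured 3281 and 2642 CPM with anti-PHGDH and 1968 and 1946 CPM with IgG. Both anti-PHGDH values were higher, and the IgG values were close to each other, unlike those of most members. The means were 2961 ± 452 CPM (SD, n = 2) and 1957 ± 15.7 CPM (SD, n = 2). The log2 fold change was 0.59 with a standard error of 1.08, which did not pass the test (limma, adjusted p = 0.714). That standard error comes from the shared variance and not from the spread of EEF1A1 itself. Leaving out IgG replicate 1 gave 0.60, nearly the same value, while centring each library on its median turned the sign of EEF1A1 (-1.91), EEF1G (-1.83) and EEF2 (-1.39). The gene lies at chr6:73515750-73521032, and its window above carries the TOP tract.

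EEF1G, the gamma subunit of the exchange factor that recharges EEF1A, measured 2581 and 2637 CPM with anti-PHGDH and 939 and 2885 CPM with IgG. Its low value came from IgG replicate 1, and IgG replicate 2 was the highest of the 4, so the groups overlapped. The log2 fold change was 0.66 (standard error 1.09, limma adjusted p = 0.696) and -0.14 without IgG replicate 1. EEF2, the translocase, was also lowest in IgG replicate 1, with 1408 and 1712 CPM with anti-PHGDH and 315 and 1640 CPM with IgG. Its log2 fold change was 1.11 (standard error 1.19, limma adjusted p = 0.677) and -0.08 without IgG replicate 1. Together EEF1A1, EEF1G and EEF2 made up 46.2% and 43.3% of member reads with anti-PHGDH and 20.6% and 42.0% with IgG.

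The tissue-restricted paralogs were low. EEF1A2 measured 3.27 and 8.22 CPM with anti-PHGDH and 0 and 4.43 CPM with IgG, and was not tested. EIF5A2, a paralog of the hypusine-carrying factor EIF5A, measured 9.21 and 4.93 CPM with anti-PHGDH and 0 and 8.86 CPM with IgG. EIF5A2 had a log2 fold change of 1.31 (standard error 1.87, limma adjusted p = 0.678), and its anti-PHGDH values lay on both sides of IgG replicate 2. Other core members gave almost no reads. EIF5A was seen in anti-PHGDH replicate 1 alone at 1.49 CPM and EEF1D in anti-PHGDH replicate 2 alone at 0.822 CPM, the value of 1 read there. EEF1B2 was listed at 0 in all 4 libraries. EEFSEC, which delivers selenocysteine, did not pass 1.19 CPM. EIF5AL1, an EIF5A-like gene, ranged from 0 to 15.4 CPM. Genes of the EIF5A, EEF1A and EEF1B families have near-identical copies, so reads shared between copies could have been lost or reassigned; how the authors counted them is not given in the sources used here.

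Of the proteins that modify or accompany elongation factors, 5 of 9 were tested, and the low values again sat in IgG replicate 1, where 4 of the 5 were listed at 0. EEF2KMT, a lysine methyltransferase acting on EEF2, measured 63.9 and 15.6 CPM with anti-PHGDH and 0 and 14.6 CPM with IgG. EEF1AKMT4, a methyltransferase acting on EEF1A, measured 61.5 and 28.8 CPM with anti-PHGDH and 0 and 24.7 CPM with IgG. In both genes the anti-PHGDH values lay above the IgG values, narrowly so for EEF2KMT in the libraries numbered 2, and anti-PHGDH replicate 1 was the high one. Their log2 fold changes were 3.06 (standard error 2.71) and 3.09 (standard error 2.64), both with a limma adjusted p of 0.677. In RefSeq, EEF2KMT overlaps ALG1, which measured 30.6 and 6.58 CPM with anti-PHGDH and 0 and 8.23 CPM with IgG. Whether the counting used strand is not given in the sources used here.

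The related methyltransferases overlapped. EEF1AKMT1 measured 14.6 and 32.9 CPM with anti-PHGDH and 0 and 38.6 CPM with IgG. EEF1AKMT2 measured 4.16 and 10.7 CPM with anti-PHGDH and 0 and 5.07 CPM with IgG. EEF1E1, a scaffold component of the aminoacyl-tRNA synthetase complex, measured 38.0 and 63.3 CPM with anti-PHGDH and 2.32 and 60.8 CPM with IgG. In each of the 3, IgG replicate 2 lay above anti-PHGDH replicate 1. EEF2K, the kinase that inactivates EEF2, gave 0.891 and 0.822 CPM with anti-PHGDH and 0 in both IgG libraries, at most 3 reads a library, and was not tested.

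Of the 44 initiation factors, 37 were tested, 22 with a log2 fold change above 0 and 15 below, and none passed the test. The median was 0.35 and the range -2.25 to 3.90; without IgG replicate 1 the median was -0.09. Among those that act on the small subunit and start codon, EIF1 measured 985 and 894 CPM with anti-PHGDH and 436 and 946 CPM with IgG. EIF1AX measured 212 and 194 CPM with anti-PHGDH and 616 and 205 CPM with IgG. EIF1B, a close paralog of EIF1, measured 27.0 and 49.3 CPM with anti-PHGDH and 627 and 44.3 CPM with IgG. In IgG replicate 1, EIF1B was 14.2 times its level in IgG replicate 2, whereas EIF1 was lower there. The log2 fold change of EIF1B, -2.17, was the second lowest of the members (standard error 1.79, limma adjusted p = 0.677), and without IgG replicate 1 it was -0.27.

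Of the EIF2 subunits, EIF2S1 and EIF2S3 had similar values in all 4 libraries, and EIF2S2 did not. EIF2S1, the alpha subunit that the stress kinases phosphorylate, measured 58.2 and 83 CPM with anti-PHGDH and 56.8 and 58.9 CPM with IgG. Only anti-PHGDH replicate 2 stood above the rest, and the log2 fold change was 0.26 (standard error 1.87, limma adjusted p = 0.927). EIF2S3, the gamma subunit, measured 165 and 191 CPM with anti-PHGDH and 185 and 159.6 CPM with IgG. EIF2S2, the beta subunit, was split by replicate number: 142 and 751 CPM with anti-PHGDH and 265 and 930.1 CPM with IgG. Both libraries numbered 2 were higher than both numbered 1 for that gene.

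All 5 subunits of EIF2B, the exchange factor that reactivates EIF2, were tested, and IgG replicate 1 was lowest for each of them. EIF2B2 and EIF2B4 were listed at 0 there, EIF2B3 stood at 1.55 CPM, EIF2B1 at 18.3 CPM and EIF2B5 at 19.4 CPM. In the other 3 libraries the 5 subunits ranged from 41.2 to 86.1 CPM. Their median log2 fold change was 2.5 with all libraries and 0.05 without IgG replicate 1. EIF2B1 was the only subunit whose groups did not overlap, with 78.7 and 46.0 CPM with anti-PHGDH and 18.3 and 41.2 CPM with IgG.

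EIF2A and EIF2D, which can bring tRNA to the ribosome independently of EIF2, were both higher with anti-PHGDH without overlap. EIF2D measured 44.0 and 29.6 CPM with anti-PHGDH and 0 and 16.5 CPM with IgG. Its log2 fold change was 3.15 (standard error 2.70, limma adjusted p = 0.677) and 1.09 without IgG replicate 1. In RefSeq, EIF2D overlaps RASSF5, which measured 39.8 and 15.6 CPM with anti-PHGDH and 0 and 10.8 CPM with IgG, and whether the counting used strand is not given in the sources used here. EIF2A measured 35.1 and 45.2 CPM with anti-PHGDH and 3.87 and 32.3 CPM with IgG.

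The EIF3 complex, the largest initiation factor, split into subunits that were low and subunits that were high in IgG replicate 1. Of 11 subunits tested, 5 were highest in that library and 6 were lowest there. EIF3B, a scaffold subunit, measured 164 and 349 CPM with anti-PHGDH and 0 and 283 CPM with IgG. The log2 fold change of EIF3B was 3.83 (standard error 1.88, limma adjusted p = 0.677), but -0.24 without IgG replicate 1. EIF3G, an RNA-binding subunit, measured 179 and 290.2 CPM with anti-PHGDH and 0 and 352 CPM with IgG. EIF3L measured 942 and 592 CPM with anti-PHGDH and 11.6 and 548 CPM with IgG. Of the EIF3 subunits tested, it alone had both anti-PHGDH values above both IgG values, and IgG replicate 2 was 47.2 times IgG replicate 1. Its log2 fold change was 3.17 (standard error 1.46, limma adjusted p = 0.677) and 0.45 without IgG replicate 1.

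Other EIF3 subunits ran the opposite way. EIF3H measured 80.8 and 191 CPM with anti-PHGDH and 874 and 144 CPM with IgG. EIF3F measured 377 and 397 CPM with anti-PHGDH and 731 and 274 CPM with IgG. EIF3J, a loosely bound subunit, measured 23.5 and 40.3 CPM with anti-PHGDH and 157 and 62.7 CPM with IgG. EIF3J and EIF3I (414 and 709 CPM against 1286 and 755 CPM) were lower with anti-PHGDH without overlap. The log2 fold change of EIF3J was -1.66 (standard error 1.93, limma adjusted p = 0.677) and -1.0 without IgG replicate 1. EIF3C and its near-identical copy EIF3CL did not pass 5.75 CPM, and EIF3K was listed at 0 in all 4 libraries.

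In the cap-binding group, 5 of 10 members tested were highest in IgG replicate 1 and 5 were lowest there. EIF4E, the cap-binding protein, measured 40.4 and 31.2 CPM with anti-PHGDH and 6.71 and 31.0 CPM with IgG. Its anti-PHGDH replicate 2 and IgG replicate 2 values were almost equal, and the log2 fold change was 1.22 (standard error 2.35, limma adjusted p = 0.726). EIF4G1, the scaffold that joins EIF4E to EIF4A and EIF3, measured 173 and 151 CPM with anti-PHGDH and 0 and 123 CPM with IgG. Against a floor of 3 reads in IgG replicate 1, EIF4G1 was at least 223.8-fold higher in anti-PHGDH replicate 1. Against IgG replicate 2, both anti-PHGDH values were above it by far less, and the log2 fold change went from 3.87 (standard error 2.05, limma adjusted p = 0.677) to 0.39 without IgG replicate 1.

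The EIF4E relatives differed from each other. EIF4E2, a cap-binding homolog that represses translation, measured 239 and 244 CPM with anti-PHGDH and 0 and 263 CPM with IgG. EIF4E2 shared the highest log2 fold change of the members, 3.90 (standard error 1.88, limma adjusted p = 0.677), and -0.13 without IgG replicate 1, the library at 0. EIF4E3 measured 10.4 and 7.40 CPM with anti-PHGDH and 0 and 3.17 CPM with IgG. It was 2-fold higher in every pair on the CPM + 1 scale, from 35 and 9 reads with anti-PHGDH and 0 and 5 reads with IgG.

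Both EIF4A helicases tested, the EIF4G1 relatives and EIF4B were high in IgG replicate 1. EIF4A3, which also sits in the exon junction complex, measured 29.4 and 88.8 CPM with anti-PHGDH and 723 and 84.8 CPM with IgG. It had the lowest log2 fold change of the members, -2.25 (standard error 1.67, limma adjusted p = 0.677), and -0.72 without IgG replicate 1. EIF4A2 measured 87.6 and 136 CPM with anti-PHGDH and 486 and 129.8 CPM with IgG. EIF4A1, the helicase of EIF4F, was listed at 0 in all 4 libraries. In RefSeq it lies inside the read-through gene SENP3-EIF4A1, also listed at 0.

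EIF4G2, a scaffold without the EIF4E-binding site, measured 1189 and 411 CPM with anti-PHGDH and 2092 and 274 CPM with IgG. Both libraries numbered 1 lay above both numbered 2, so the log2 fold change of -0.11 (standard error 1.24, limma adjusted p = 0.952) turned to 1.35 without IgG replicate 1. EIF4G3 measured 50.5 and 43.6 CPM with anti-PHGDH and 604 and 34.8 CPM with IgG. EIF4B, a helicase cofactor and TOP mRNA, measured 444 and 236 CPM with anti-PHGDH and 1757 and 209.6 CPM with IgG. For EIF4G3 and EIF4B, both anti-PHGDH libraries lay between the IgG libraries.

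The late-acting factors EIF5 and EIF5B were lower with anti-PHGDH without overlap. EIF5, which triggers GTP hydrolysis on EIF2, measured 296 and 323 CPM with anti-PHGDH and 702 and 420.4 CPM with IgG. EIF5B, which joins the ribosomal subunits, measured 29.1 and 110.2 CPM with anti-PHGDH and 150.2 and 137 CPM with IgG. Neither passed the test (log2 fold changes -0.81 and -1.32, limma adjusted p = 0.698 and 0.677). EIF6, which keeps the large subunit from joining early, measured 249.9 and 286 CPM with anti-PHGDH and 3.10 and 413 CPM with IgG, so IgG replicate 2 was 133.3 times IgG replicate 1.

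The 6 regulators tested had a median log2 fold change of 2.63, beside 1.92 for all genes tested, and 0.57 without IgG replicate 1, beside 0.14. After quantile normalization their median was 0.26, below the 1.04 of the core elongation factors. No regulator passed the test, and the difference between classes was not tested. EIF4EBP2, a binding protein that holds EIF4E inactive until mTORC1 phosphorylates it, measured 234 and 172 CPM with anti-PHGDH and 1.29 and 77.9 CPM with IgG. Both anti-PHGDH libraries were more than 2-fold above both IgG libraries. The means were 202.7 ± 43.6 CPM (SD, n = 2) and 39.6 ± 54.2 CPM (SD, n = 2). EIF4EBP2 had a log2 fold change of 3.90 (standard error 1.96, limma adjusted p = 0.677) and 1.35 without IgG replicate 1. EIF4ENIF1, which carries EIF4E into the nucleus, measured 34.2 and 23.8 CPM with anti-PHGDH and 0.258 and 14.6 CPM with IgG. Its values were in the same order, with a log2 fold change of 2.74 (standard error 2.71, limma adjusted p = 0.677).

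The 4 kinases that phosphorylate EIF2S1 gave 4 different orders. EIF2AK1, the heme-regulated kinase, measured 129.5 and 73.2 CPM with anti-PHGDH and 0 and 50.0 CPM with IgG. Both anti-PHGDH values were higher, and the log2 fold change was 3.78 (standard error 2.29, limma adjusted p = 0.677) and 0.95 without IgG replicate 1. In RefSeq, EIF2AK1 overlaps AIMP2, which measured 52.9 and 45.2 CPM with anti-PHGDH and 0.258 and 51.9 CPM with IgG. EIF2AK2, the kinase activated by double-stranded RNA, measured 22.3 and 29.6 CPM with anti-PHGDH and 0 and 22.2 CPM with IgG. Anti-PHGDH replicate 1 and IgG replicate 2 were equal to within 1 read's worth of CPM for that gene.

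EIF2AK4, the kinase activated by amino acid shortage, measured 25.8 and 50.1 CPM with anti-PHGDH and 26.6 and 47.5 CPM with IgG. Its values paired by replicate number and gave a log2 fold change of 0.02 (standard error 2.12, limma adjusted p = 0.995). EIF2AK3, the kinase of the endoplasmic reticulum, was not tested: it measured 2.38 and 2.47 CPM with anti-PHGDH and 37.9 and 1.27 CPM with IgG. Its 147 reads in IgG replicate 1 contrasted with 2 to 8 reads in the others. EIF1AD, an EIF1A-domain protein, measured 30.3 and 37.8 CPM with anti-PHGDH and 0 and 35.5 CPM with IgG.

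**Figure D3:**
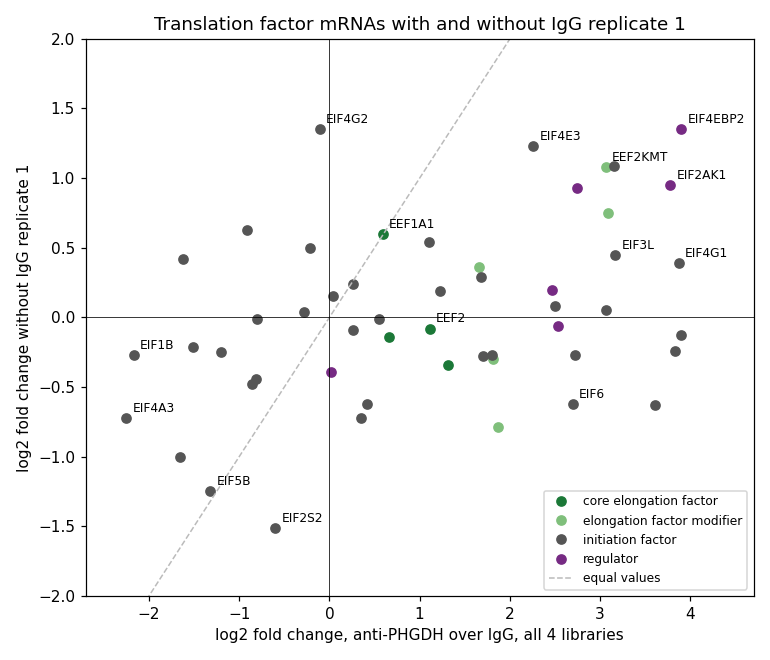
Each point is 1 of the 52 members tested, coloured by class, with its log2 fold change of anti-PHGDH over IgG from all 4 libraries (horizontal axis) and without IgG replicate 1 (vertical axis); the dashed line marks equal values. EIF4EBP2 lies at the top right (3.90 and 1.35), level with EIF4E2 (3.90) on the horizontal axis and with EIF4G2 on the vertical one, EEF1A1 lies on the line (0.59 and 0.60), and EIF4G2 goes from -0.11 to 1.35.

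The replicates numbered 2 allowed a comparison that IgG replicate 1 does not enter, though it sets 1 library against 1 library and has no replicate check. There, 2 members (EIF4EBP2 and EIF4E3) were at least 2-fold higher with anti-PHGDH on the CPM + 1 scale, 3.85% of members beside 12.5% of all genes tested. No member was 2-fold lower, beside 1.97% of all genes. In the replicates numbered 1, by contrast, 31 members (59.6%) were at least 2-fold higher, beside 76.6% of all genes, and 11 (21.2%) at least 2-fold lower, beside 15.3%. All 11 lower members were initiation factors. The median CPM ratio in number 2 was 1.07 for members and 1.14 for all genes tested, and 69.2% of members and 63.1% of all genes had a ratio above 1.

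Exact 95% intervals for counting error placed 11 of 52 ratios in number 2 above 1 (21.2%), beside 18.5% of all genes tested, and 6 below (11.5%), beside 7.24%. EIF4EBP2 had the highest ratio among the 11, 2.21 (1.76 to 2.78), with 209 reads against 123. EIF2D followed at 1.80 (1.06 to 3.10), EIF4G2 at 1.5 (1.32 to 1.71) and EIF2AK1 at 1.46 (1.07 to 2.01). EIF3F stood at 1.45 (1.27 to 1.65), EIF2S1 at 1.41 (1.05 to 1.89) and EEF1A1 at 1.36 (1.29 to 1.43). The 6 lower ratios were those of EIF3J at 0.643 (0.447 to 0.914), EIF6 at 0.693 (0.607 to 0.791), EIF5 at 0.768 (0.677 to 0.872), EIF2S2, EIF3G and EEF1G. The ratio of EIF4E3, 2.34, had an interval from 0.703 to 8.88, since it rested on 9 and 5 reads. All 6 regulators tested had a ratio above 1, from 1.06 to 2.21, beside 63.1% of all genes tested. Of these, only EIF4EBP2 and EIF2AK1 had an interval above 1. The intervals of EIF2AK2 (0.815 to 2.19), EIF4ENIF1 (0.915 to 2.96), EIF1AD (0.706 to 1.6) and EIF2AK4 (0.741 to 1.5) included 1. These intervals describe the 2 libraries and not the spread between precipitations.

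**Figure D4:**
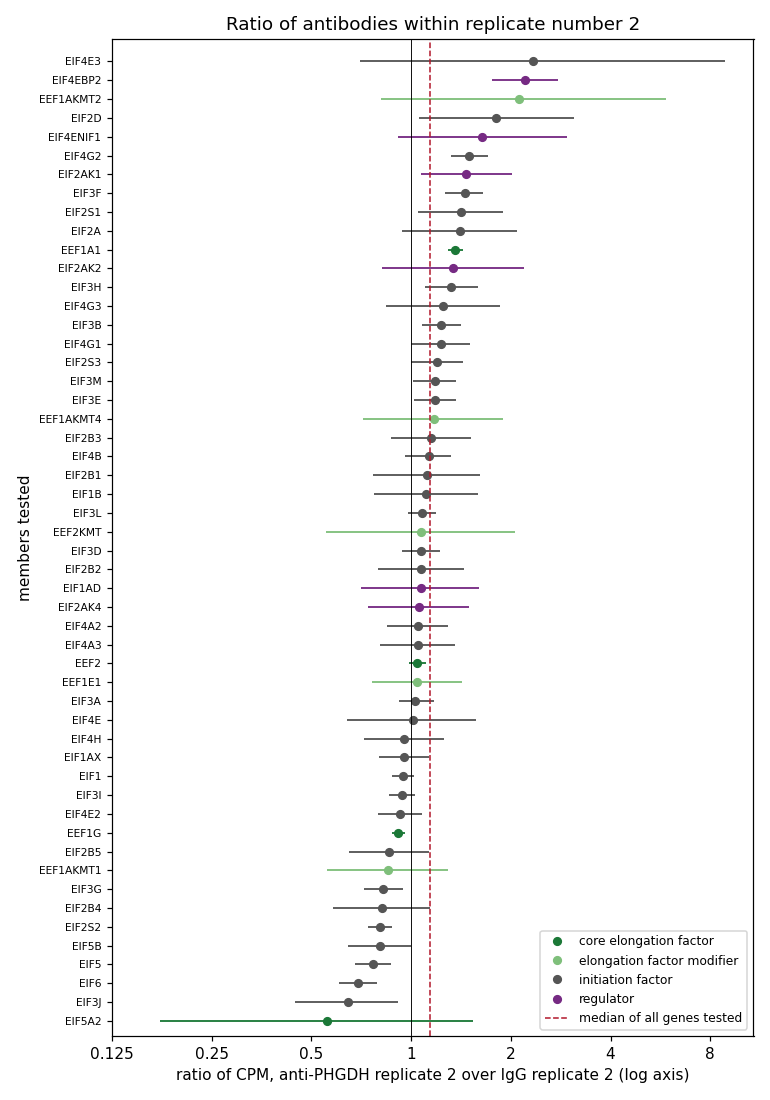
Points give the CPM ratio of anti-PHGDH replicate 2 over IgG replicate 2 for the 52 members tested, on a log axis, with exact 95% intervals for counting error; the dashed line is the median of all genes tested (1.14). EIF4EBP2 (2.21) and EEF1A1 (1.36) lie above 1 with their intervals, EIF6 (0.693) and EIF5 (0.768) below it.

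The members known as TOP mRNAs fell on both sides of 0. Of the 14 members on the TOP list, 10 were tested, with a median log2 fold change of 0.63 and 0.11 without IgG replicate 1. The 42 other members tested had medians of 1.48 and -0.04. The TOP members held 0.943% and 0.914% of reads with anti-PHGDH and 0.670% and 0.831% with IgG. Grouped instead by the tract found at the RefSeq start, 10 members with it were tested, and all 10 had a ratio above 1 in number 2, from 1.04 to 1.80. Of the 33 without it, 20 had a ratio above 1. Over all protein-coding genes tested the shares above 1 were 63.1% with the tract and 63.0% without it. The difference between the member groups was not tested.

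Genes that work beside these factors gave no calls in limma either. On a list of 11 TOP mRNAs outside the ribosome and the factors, all were tested, 2 were higher without overlap and 3 lower, beside 38.3% and 6.16% of all genes tested. The 2 were the poly(A)-binding proteins PABPC1, with 2585 and 1922 CPM with anti-PHGDH and 1104 and 736 CPM with IgG, and PABPC4, with 193 and 151 CPM against 2.58 and 69.0 CPM. The 3 were TPT1, NACA and BTF3, the last of these the partner of NACA at the ribosome exit. On the list for termination, recycling and rescue, 12 of 14 were tested, with 3 higher and 2 lower without overlap. LARP1, the TOP-binding protein, was one of the 3, with 209 and 134 CPM with anti-PHGDH and 1.81 and 55.7 CPM with IgG. On the list of enzymes and signalling partners of the factors, 14 of 16 were tested, with 2 higher without overlap, the phosphatase subunit PPP1R15B and the EIF4E kinase MKNK2, and 0 lower. The medians of the 3 lists were -0.66, 0.23 and 2.03, beside 1.92 for all genes tested.

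Of the 19 members not tested, 6 were listed at 0 in all 4 libraries, among them EIF4A1, EEF1B2, EIF3K and the read-through symbols EEF1AKMT4-ECE2 and EEF1E1-BLOC1S5. With a count of 0, a level of up to 3 reads is still possible, 0.774 to 2.47 CPM depending on the library. EIF4A1, EEF1B2 and EIF3K encode factors that dividing cells need, so they are described only as listed at 0.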

How the data were processed

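RNA precipitated with anti-PHGDH or IgG antibody from HEK293T cells was sequenced in 2 libraries a group. The authors deposited 1 table of CPM per library, 44715 symbols to 3 decimals. Reads were handled with STAR 2.5.4b, featureCounts and build hg38, per the submitters' processing notes; annotation, strand use and duplicate handling are not given in the sources used here. No molecular identifiers are named, so intervals and floors cover counting error only. Whole reads were recovered by dividing each CPM by the value of 1 read (0.258 to 0.822 CPM): 99.98% or more of values above 0 came out whole to within the rounding of the 3 decimals, and every member value did.

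Genes with at least 5 CPM in 2 libraries (9524) were tested on log2(CPM + 1), a pseudocount of 1 that understates changes of low genes, with limma 3.58.1 (lmFit, eBayes with trend) in R 4.3.3 and Benjamini-Hochberg adjustment over all 9524. On the recovered reads, edgeR 4.0.16 with its quasi-likelihood test called 0 of all genes, as did DESeq2 1.42.0. The limma step was tested on simulated data, where 200 of 200 genes changed 8-fold were recovered with 15 false calls among 9170 genes. The simulation drew every library from the same gene means, apart from those changes, with a single dispersion for all genes. It held no library like IgG replicate 1, so recovery there does not measure power in these data.

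Members follow from their symbols, and all 71 matched RefSeq; 41930 of all symbols did. Values per library are given for core elongation factors, EIF2AK kinases, EIF4EBP2, EIF2S1, EIF4E, EIF4G1, EIF4A1 and the 3 highest and 3 lowest fold changes of each class. Other members were named after their values were seen. Members and lists were chosen with earlier results of these data known, and no list was tested as a set. Tracts and windows come from RefSeq (GRCh38.p14). Group and replicate number come from the sample titles. The numbers were not treated as pairs in the main fit. Deviations of same-numbered libraries correlated at 0.006 across genes. That value cannot exclude pairing, because the IgG deviation includes IgG replicate 1, which listed 61.9% of genes tested at 0. Fits with the replicate number as a block are given below.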

Additional observations from a re-analysis of the deposited data

How the results depend on the processing

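No member was called in either direction under any alternative but the one that left out IgG replicate 2; leaving out each library in turn gave 0 to 27 members called higher and 0 to 7 lower. The 27 and 7 came without IgG replicate 2, where IgG replicate 1 alone stood for the control and its spread was assumed to equal that of the anti-PHGDH pair. Over all genes, 1 was called higher: 11 at a pseudocount of 0.1, 6 with no filter, and 0 after centring on library medians, without the trend, in edgeR and in DESeq2. Leaving out libraries gave 0 to 7129 genes higher (7129 without IgG replicate 2, 99 without IgG replicate 1) and 0 to 1032 lower.

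With the replicate number as a block, limma called 4 genes higher and edgeR 0, and no member.

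The 14 members higher without overlap became 8 with TMM factors, 3 after centring and 23 without mitochondrial genes (an alternative chosen after seeing the data). On leaving out a library they became 16 to 35. Over all genes tested, the 3651 higher became 3042, 846, 4818 and 4180 to 7595 in the same order. The 4 lower became 8 with TMM factors, 22 after centring and 5 to 14 on leaving out a library. Over all genes tested, the 587 lower became 862, 3163 and 789 to 2392 in the same order. The 2 members 2-fold higher in every pair became 1 at a pseudocount of 5, 1 at a filter of 20 CPM, 1 after quantile normalization, 0 with TMM factors, 0 after centring, 4 at 1.5-fold, 0 at 4-fold and 2 to 31 without a library. The 0 lower became 1 after quantile normalization, 1 at 1.5-fold and 0 to 9 without a library. All genes tested that were 2-fold higher in every pair, 886 in the main run, became 674 with TMM factors and 109 after centring. They became 476 at a pseudocount of 5, 427 at a filter of 20 CPM and 292 after quantile normalization. At 1.5-fold they were 1664 and at 4-fold 175. Their number was 952 to 7206 without a library. Of all genes tested, 8 were 2-fold lower in every pair. These became 100 after quantile normalization, 70 at 1.5-fold and 36 to 1209 without a library.

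Centring moved the median log2 fold change to -1.61 for core elongation factors, -0.63 for modifiers, -2.15 for initiation factors, 0.14 for regulators, -1.33 for all members and -0.57 for all genes. It turned EEF1A1 to -1.91, EEF1G to -1.83, EEF2 to -1.39 and EIF4E3 to -0.24; the cause was not tested. Leaving out a library moved the medians between -0.11 and 1.88 for core elongation factors, 0.36 and 4.52 for modifiers, -0.09 and 1.11 for initiation factors, 0.57 and 4.93 for regulators, and -0.04 and 2.27 for all members. It moved EEF1G between -0.14 and 1.47, EEF2 between -0.08 and 2.30, EIF3B between -0.24 and 7.91, EIF4E2 between -0.13 and 7.92, and EIF4G2 between -1.58 and 1.35. Quantile normalization gave medians of 0.26 for regulators and -0.30 for modifiers. EIF4G2 was 0.07 after quantile normalization and 0.14 without mitochondrial genes. EIF4EBP2 kept its sign in every alternative run, as did EIF2AK1, EIF4G1, EIF3L, EIF1B and EIF4A3 among the members followed. With 2 libraries a group, 1 of them with 4148 symbols seen, and depths down to 1216477 reads, members under about 10 CPM rest on few reads.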

Other observations

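The 103 pseudogene symbols left out by the rule held few reads. Their summed level was 44.0 and 74.8 CPM with anti-PHGDH and 74.8 and 77.2 CPM with IgG, 0.280% to 0.501% of the reads on the members themselves. EEF1A1P5, a processed copy of EEF1A1, measured 15.2 and 14.0 CPM with anti-PHGDH and 4.90 and 12.7 CPM with IgG. EIF4BP3, a copy of EIF4B, measured 5.35 and 1.64 CPM with anti-PHGDH and 28.4 and 2.53 CPM with IgG. Each of these had the same highest library as its parent gene, whereas EEF1A1P6 (anti-PHGDH 3.27 and 7.40 CPM, IgG 2.06 and 2.53 CPM) was highest in anti-PHGDH replicate 2 and EEF1A1 in replicate 1. These copies were named after their values were seen.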
